A study of Mus musculus with 6 samples.

Results

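The EGF receptor family comprises the receptor tyrosine kinases encoded by Egfr, Erbb2, Erbb3 and Erbb4, and it is described here with its ligands Areg, Ereg, Tgfa, Hbegf, Nrg1 and Btc. The members were taken by name: a row of the array counted where its annotation names exactly 1 gene and that gene is one of these 10, and the row with the highest mean stood for a gene with several rows. Measured in this way were 9 of the 10, all 4 receptors and 5 of 6 ligands, among 22179 genes in all, and Areg was not analysed here. The samples came from mice with conditional alleles of Rb, p53 and p130 (the retinoblastoma gene, the p53 gene and the relative of the former also called Rbl2) that received Adeno-Cre through the trachea to start small-cell lung cancer (SCLC). Every animal had, besides, an allele that makes cells expressing Hes1, a repressor gene induced by Notch signalling, fluoresce green (GFP). Tumours were removed 5 to 6 months after Cre, pooled and sorted into GFP-negative cells (negative or low for the reporter) and GFP-high cells, with 3 arrays of total RNA for each population. The labels call the 3 samples of a population biological replicates; the sorting protocol speaks of tumours pooled from 3 mice, and the source label of each sample of a single mouse, so which animals gave which sample is not settled. The sources used here do not give strain, sex or age of the animals. Both populations come from the same kind of tumour-bearing lung, so the only contrast is the level of the reporter, and a cell sorted as GFP-high need not be a tumour cell by that gate alone.

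ErbB receptors pair with each other when a ligand binds, and the pair then phosphorylates itself and starts the RAS-ERK and PI3K-AKT cascades. Egfr binds EGF, TGF-alpha, amphiregulin and epigen, Erbb4 binds neuregulins, and betacellulin, HB-EGF and epiregulin bind both of these receptors. Erbb2 binds no known ligand and serves as the preferred partner of the others, while Erbb3 binds neuregulins but has little kinase activity of its own and signals through its partner. In the lung, ErbB signalling is known for its part in branching, in surfactant production and in the repair of injured airway epithelium.

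Values are log2 expression levels normalised by the robust multi-array average (RMA), so a difference of 1 is a doubling. Levels of different genes on the array cannot be set against each other, and only differences between the groups are compared across genes. Hes1 itself was 11.7-fold higher in GFP-high cells (log2 fold change 3.54 ± 0.13 SE). The correlation between arrays, taken across genes, which are not independent replicates, was 0.987 to 0.991 within a group and 0.918 to 0.940 between the groups. The number of arrays, 3 a group, limits the precision, and the p-values measure the spread between these samples, which the labels call biological replicates without naming an animal or pool for each. In sorted bulk samples a lower level cannot be told apart from fewer cells of a type. Of the neuroendocrine markers, which are typical of SCLC cells, 7 of 7 measured were lower in GFP-high cells. Their mean log2 level ran from 7.31 to 8.27 there against 9.89 to 9.97 in GFP-negative cells. A low level of these markers does not by itself show that a cell is not a tumour cell. In the same arrays all measured markers of club cells (8), of type 2 cells of the alveoli (9) and of their type 1 cells (7) were higher, with mean levels of 12.20 to 12.34 against 7.56 to 8.42 for the club markers, 9.96 to 10.43 against 5.95 to 6.39 for type 2 and 8.53 to 8.82 against 6.09 to 6.29 for type 1. The part of such cells in the differences below was not tested.

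The receptors of the family moved in opposite directions. Erbb2 and Erbb3 were higher in GFP-high cells, Egfr was lower, and Erbb4 did not pass the test. Of the 9 measured members 3 were called higher and 2 lower, at a limma p under 0.05 after Benjamini-Hochberg adjustment over all genes, while 30% of all genes were called in either direction, 13% as higher and 17% as lower. The receptors supplied 3 of these 5 calls (of 4 measured) and the ligands 2 (of 5 measured). The median log2 fold change of the 9 members was 0.29, beside 0.01 over all genes.

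**Figure D1:**
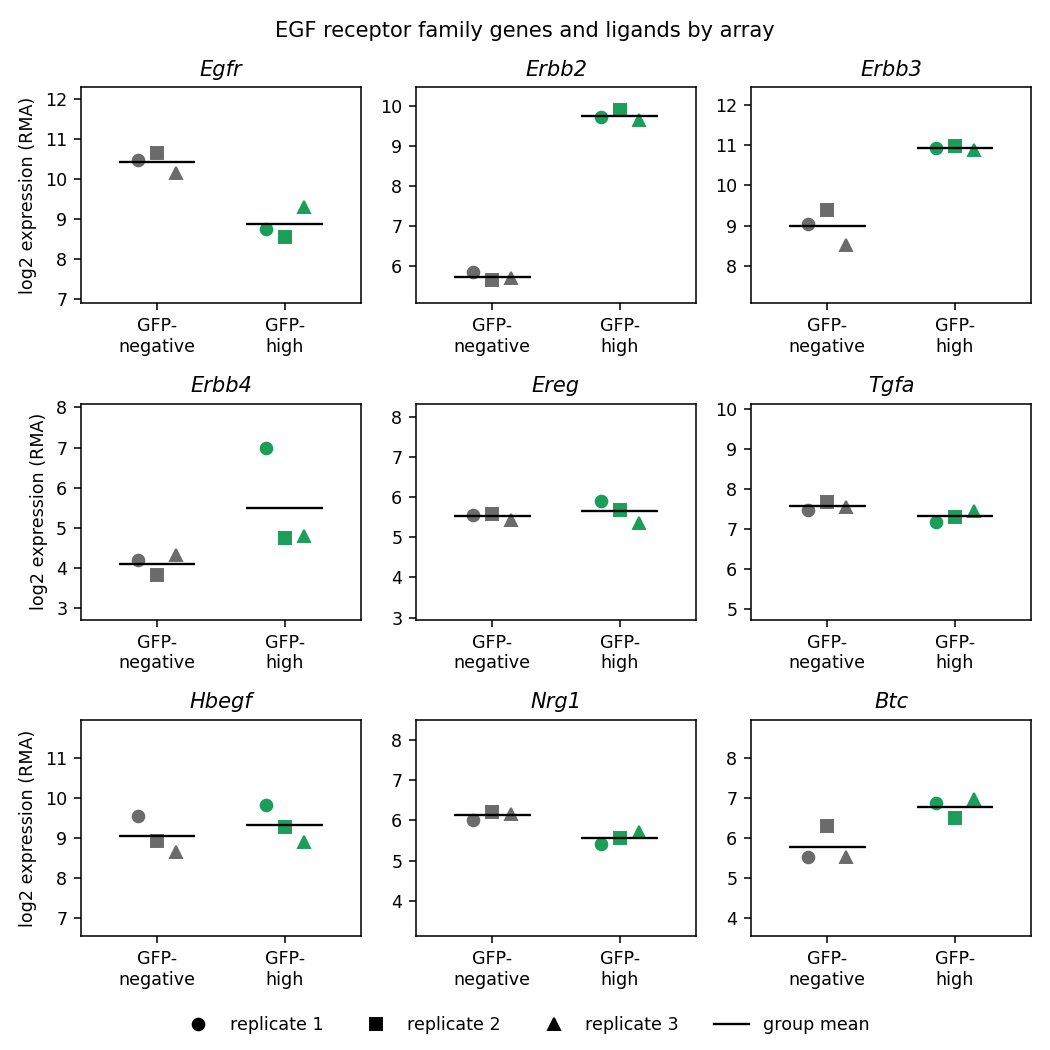
Log2 expression of the 9 measured members in each array, with GFP-negative arrays in grey and GFP-high arrays in green, a marker shape for each replicate number, the group mean as a line and a span of equal height on every vertical axis. The groups stand far apart for Erbb2 and Erbb3, Egfr is lower in GFP-high cells, and 1 GFP-high array of Erbb4 reads 6.98 while the others read 4.74 and 4.78.

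Erbb2, the receptor without a ligand of its own, changed most. It read 5.86, 5.65 and 5.71 in the GFP-negative arrays and 9.74, 9.90 and 9.66 in the GFP-high arrays. The lowest GFP-high array lay 3.80 above the highest GFP-negative one, while the arrays of a group differed by at most 0.24. The group means were 9.77 ± 0.12 and 5.74 ± 0.11 (SD, n = 3 each), a 16.3-fold difference (log2 fold change 4.03, 95% interval 3.75 to 4.30, adjusted p = 1.86e-07 by limma). Only 86 of the 22179 genes had a larger rise.

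Erbb3, the neuregulin receptor with little kinase activity, read 9.03, 9.38 and 8.52 in the GFP-negative arrays and 10.93, 10.98 and 10.90 in the GFP-high arrays. The GFP-high arrays were nearly alike, with a spread of 0.086, while the GFP-negative arrays spanned 0.85, and the groups did not overlap. The rise was 3.89-fold (log2 fold change 1.96, 95% interval 1.51 to 2.41, adjusted p = 0.000135 by limma). The intervals of Erbb2 and Erbb3, which can act as a pair, did not overlap, so the rise of Erbb2 was the larger on this scale.

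Egfr, the receptor of EGF and TGF-alpha, read 10.47, 10.65 and 10.16 in the GFP-negative arrays and 8.76, 8.55 and 9.31 in the GFP-high arrays. Every GFP-high array lay below every GFP-negative array, with a gap of 0.85. The means were 8.87 ± 0.39 and 10.43 ± 0.25 (SD, n = 3 each), a 2.93-fold difference (log2 fold change -1.55, 95% interval -2.03 to -1.07, adjusted p = 0.000613 by limma). A larger fall was measured for 585 genes. GFP-high replicate 3 kept the highest Egfr of its group, with a shift of -1.11 from the mean of the GFP-negative arrays, while its group mates had -1.67 and -1.88. In that array the neuroendocrine markers were also least reduced, with a median of -1.75 against -2.51 and -2.84. Without it the log2 fold change of Egfr was -1.77.

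Erbb4, the other neuregulin receptor, read 4.18, 3.81 and 4.31 in the GFP-negative arrays and 6.98, 4.74 and 4.78 in the GFP-high arrays. GFP-high replicate 1 stood far above the other arrays of its group, which lay close together, and the GFP-high arrays together spanned 2.23. All 3 still lay above the GFP-negative arrays, by a gap of 0.43. The log2 fold change of 1.40 (95% interval 0.20 to 2.60) did not pass the test (adjusted p = 0.0807 by limma). Without GFP-high replicate 1 the difference was smaller, 0.66, and passed (adjusted p = 0.0275 by limma); without GFP-high replicate 3 it was 1.76 and passed at an adjusted p of 0.0495 by limma. Over all alternatives the adjusted p of Erbb4 ran from 0.0275 to 0.278.

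The stretches before the starts of Erbb2 and Egfr are shown because these receptors had the largest rise and the largest fall of the family. They are the 250 bases before a RefSeq transcript start on the gene's strand (GRCm38.p6), printed in lower case with the matches to the motifs named next in capitals. The motifs, searched on both strands, were TGGGAA for RBPJ, the DNA-binding partner of Notch, CACGCG and CACNAG for Hes repressors, GGAATG for TEAD, the partner of YAP and TAZ, TGANTCA for AP-1 and the GC box GGGCGG. Such motifs do not overlap each other in the stretches printed.
Erbb2, chr11:98412234-98412483, plus strand: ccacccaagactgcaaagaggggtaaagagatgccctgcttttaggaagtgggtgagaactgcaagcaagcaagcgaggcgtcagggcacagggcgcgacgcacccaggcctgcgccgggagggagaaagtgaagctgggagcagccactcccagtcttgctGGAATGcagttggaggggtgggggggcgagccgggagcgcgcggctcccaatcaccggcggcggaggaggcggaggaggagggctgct
Egfr, chr11:16751953-16752202, plus strand: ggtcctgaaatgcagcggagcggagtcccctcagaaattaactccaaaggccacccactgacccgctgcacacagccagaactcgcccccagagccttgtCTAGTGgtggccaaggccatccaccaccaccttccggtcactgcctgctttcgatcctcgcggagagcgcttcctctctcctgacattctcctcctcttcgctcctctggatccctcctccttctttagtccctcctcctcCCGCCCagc
The Erbb2 stretch held 1 match, the TEAD motif GGAATG starting at position -88 from the start, which 12.6% of 32851 promoters of the same length also hold. The Egfr stretch held the Hes motif CACNAG on the opposite strand at -150 (36.7% of promoters) and a GC box on the opposite strand at -9 (32.7%). RBPJ's TGGGAA, held by 21.6% of promoters, CACGCG (7.62%) and TGANTCA (6.75%) were not among the letters of either window. A match describes the letters only, and binding was not measured.

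Of the 5 measured ligands 1 was called higher, 1 lower and 3 did not pass (40.0% called, beside 30% of all genes). Btc, encoding betacellulin, was the one called higher. It read 5.51, 6.29 and 5.52 in the GFP-negative arrays and 6.87, 6.50 and 6.97 in the GFP-high arrays. The groups did not overlap, but GFP-negative replicate 2 came within 0.21 of the lowest GFP-high array. The difference was 2.01-fold (log2 fold change 1.01, 95% interval 0.49 to 1.52, adjusted p = 0.0094 by limma), and it did not pass in a test without moderation of the variance (adjusted p = 0.0892). GFP-negative replicate 2 also had the highest Erbb3 of its group and the highest club markers, whose median shift from the group mean was 0.54 there and -0.22 and -0.29 in its group mates. Erbb2, however, was lowest of its group in that array (shift -0.09). Egfr (0.22) and the neuroendocrine markers (median 0.10), which were lower in GFP-high cells, were highest of the group there too.

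Nrg1, encoding neuregulin 1, which binds Erbb3 and Erbb4, was lower in GFP-high cells. It read 6.02, 6.21 and 6.15 in the GFP-negative arrays and 5.40, 5.56 and 5.72 in the GFP-high arrays. The groups were 0.30 apart at their nearest, and the difference was 1.48-fold (log2 fold change -0.57, 95% interval -0.85 to -0.28, adjusted p = 0.00854 by limma). The neuregulin gene has many transcripts, and the row gives 1 value for them all.

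Tgfa, encoding TGF-alpha, read 7.46, 7.68 and 7.54 in the GFP-negative arrays and 7.18, 7.30 and 7.46 in the GFP-high arrays. The groups touched, with a gap of 0.0041, and the log2 fold change of -0.25 (95% interval -0.53 to 0.03) did not pass (adjusted p = 0.171 by limma). Hbegf, encoding HB-EGF, spread widely in both groups, at 9.55, 8.94 and 8.67 in GFP-negative and 9.84, 9.29 and 8.90 in GFP-high arrays. In both groups replicate 1 was highest and replicate 3 lowest. The Hbegf groups overlapped (log2 fold change 0.29, 95% interval -0.34 to 0.92, adjusted p = 0.496 by limma). With the replicate number as a block the SE of Hbegf was 0.12 in place of 0.28, and it still did not pass (adjusted p = 0.123 by limma). Leaving out 1 array moved the log2 fold change of Hbegf to between 0.042 (without GFP-high replicate 1) and 0.54 (without GFP-negative replicate 1), and it did not pass in any of these fits. Ereg, encoding epiregulin, read 5.56, 5.58 and 5.44 against 5.92, 5.68 and 5.36, and these groups overlapped too (log2 fold change 0.13, 95% interval -0.22 to 0.47, adjusted p = 0.597 by limma). A second row for Ereg gave -0.03 on the same scale, with an interval of -0.31 to 0.24. The intervals leave room for differences of up to 1.90-fold for Hbegf and 1.39-fold for Ereg. Over all 9 members the groups did not overlap for 7, whereas they did not overlap for 44.6% of all genes.

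**Figure D2:**
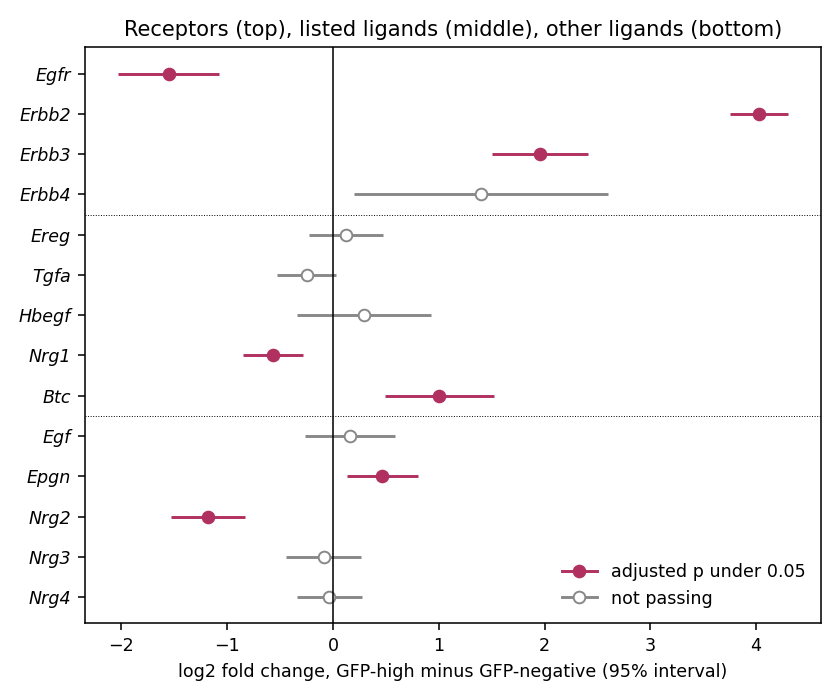
Log2 fold change (GFP-high minus GFP-negative) with its 95% interval from limma for the 4 receptors, the 5 measured ligands of the list and 5 further ligands of the family, with filled points where the adjusted p was under 0.05. Erbb2 lies at 4.03 and Egfr at -1.55, and the ligands lie between -1.18 (Nrg2) and 1.01 (Btc).

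Of 5 further ligands of the family, 1 was higher, 1 was lower and 3 did not pass (40.0% called, beside 30% of all genes). Nrg2, another neuregulin, read 7.37, 7.49 and 7.10 in GFP-negative and 6.04, 6.01 and 6.38 in GFP-high arrays. Its groups did not overlap, and the log2 fold change was -1.18 ± 0.15 SE (adjusted p = 0.000472 by limma). Epgn, encoding epigen, was higher by 0.47 ± 0.15 (adjusted p = 0.0428 by limma), a call lost in 9 of 13 alternatives, among them centring each array on its median (adjusted p = 0.0529) and quantile normalization (0.116). The mean level of Epgn lay among the lowest 30% of genes. Egf (0.16), Nrg3 (-0.09) and Nrg4 (-0.03) did not pass. Both neuregulin genes that were called, Nrg1 and Nrg2, were thus lower in the cells with more Erbb3.

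Most ErbB ligands are made as membrane proteins and freed by cutting. Of 11 genes of ligand shedding and trafficking 7 were higher, 1 was lower and 3 did not pass. The share called was 72.7%, beside 30% of all genes, and the median log2 fold change was 0.71. Rhbdf2 and Rhbdf1 encode iRhoms, which carry the sheddase ADAM17 to the cell surface. Rhbdf2 read 6.39, 6.38 and 6.43 in GFP-negative and 8.70, 8.40 and 8.36 in GFP-high arrays, a rise of 2.09 ± 0.13 (log2 fold change ± SE; adjusted p = 7.07e-06 by limma). Rhbdf1 rose by 2.01 ± 0.19, from 7.03 ± 0.24 to 9.05 ± 0.34 (SD, n = 3 each). Timp3, an inhibitor of ADAM17 among other proteases, rose as well, by 1.71 ± 0.16, and the metalloprotease gene Adam12 by 0.92 ± 0.18, a call lost in the test without moderation (adjusted p = 0.0572). Named after their values were seen, Adam17 itself rose by 0.71 ± 0.12 and Frmd8, whose product stabilises iRhoms, by 0.85 ± 0.13, while Adam10 (-0.11, adjusted p = 0.596 by limma) did not pass. Cnih1, a relative of a fly gene that helps export a TGF-alpha-like ligand, was the member that was lower (-0.80 ± 0.14).

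Genes that act at the receptors themselves changed both ways. Among 17 adaptor and ligase genes 3 were higher, 5 lower and 9 did not pass (median 0.01). The share called was 47.1%, beside 30% of all genes. The ubiquitin ligase gene Cblb (0.83 ± 0.14) and the phospholipase gene Plcg1 (0.83 ± 0.22) were higher, and the adaptor genes Gab2 (-0.79 ± 0.11) and Eps8 (-0.74 ± 0.14) were lower. The call of Plcg1 was lost in 5 of 14 alternatives: in a test without moderation (adjusted p = 0.12) and without GFP-negative replicate 1 (0.0714), GFP-negative replicate 2 (0.0678), GFP-high replicate 1 (0.0641) or GFP-high replicate 2 (0.0683). Of 12 genes listed as receptor regulators, feedback inhibitors and phosphatases among them, 3 were higher and none lower, a share of 25.0% beside the 30% of all genes. They were Lrig3 (1.37 ± 0.15), the phosphatase gene Ptprk (1.28 ± 0.22) and its relative Ptprj (0.48 ± 0.13). The call of Ptprj was lost without GFP-negative replicate 1 (adjusted p = 0.0718), GFP-negative replicate 3 (0.0664) or GFP-high replicate 1 (0.062), and in the test without moderation (0.0531). Errfi1, whose product blocks the kinases of Egfr and Erbb2 and which was named after its values were seen, gave 0.35 ± 0.20 and did not pass (adjusted p = 0.23 by limma).

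Genes of the RAS-ERK cascade itself showed no call. Limma called 0 of 9 measured members, beside 30% of all genes, with log2 fold changes from -0.33 to 0.19. The test without moderation also called 0. At an unadjusted p under 0.05 there was 1. The genes that ERK induces split instead, with 4 of 14 higher and 4 lower (median -0.07). The share called was 57.1%, beside 30% of all genes. Phlda1, an early response gene, read 6.46, 6.64 and 6.36 in GFP-negative and 10.23, 9.54 and 9.42 in GFP-high arrays, a rise of 3.24 ± 0.21 (adjusted p = 1.04e-05 by limma). Ier3, another early gene, rose by 2.96 ± 0.19. The ERK phosphatase gene Dusp4 read 8.61, 9.02 and 8.69 against 6.67, 6.87 and 7.66, a log2 fold change of -1.71 ± 0.25, and Dusp5 fell too (-1.35 ± 0.16). As with Egfr, the highest Dusp4 of the GFP-high arrays was that of replicate 3. Named after their values were seen, Dusp6 (-0.90 ± 0.18) and Egr1 (-0.55 ± 0.11) were lower, and Spred1 (1.24 ± 0.17) and the cyclin gene Ccnd1 (1.33 ± 0.10) were higher. A second row for Dusp6, at a lower level, gave -0.47 and did not pass. Spry1, Spry2 and Spry4, feedback inhibitors that ERK induces, did not pass (0.19, 0.11 and -0.33).

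In the PI3K-AKT cascade 2 of 11 measured genes were higher, 3 lower and 6 did not pass (median -0.12). The share called was 45.5%, beside 30% of all genes. The catalytic subunit gene Pik3cb (1.31 ± 0.15) and the regulatory subunit gene Pik3r1 (0.73 ± 0.11) were higher. Pik3r3, a further regulatory subunit, read 9.27, 8.83 and 8.86 in GFP-negative and 7.38, 6.67 and 7.37 in GFP-high arrays (-1.84 ± 0.21, adjusted p = 0.000277 by limma). Tsc2, a brake on mTOR, was lower by a small amount (-0.43 ± 0.11), a call lost without GFP-negative replicate 1 (adjusted p = 0.0628) or GFP-high replicate 1 (0.0513).

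**Figure D3:**
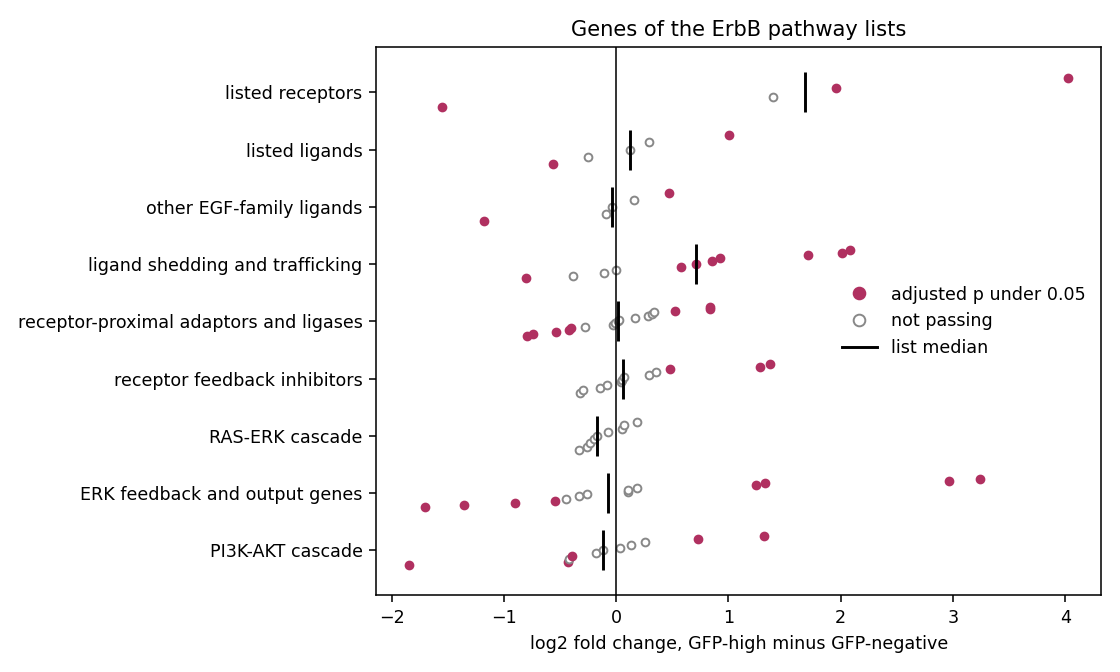
Log2 fold change (GFP-high minus GFP-negative) of each measured gene in the receptor, ligand and pathway lists, filled where the adjusted p was under 0.05, with the list median as a vertical line. The shedding genes lie mostly to the right of 0 with a median of 0.71, no gene of the RAS-ERK cascade is filled, and the ERK output genes reach from -1.71 to 3.24.

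Between the groups the club and alveolar markers rose, as Erbb2 and Erbb3 did, while Egfr fell. Within the GFP-high arrays Erbb2 and Erbb3 were highest in replicate 2. There the medians of the club markers (4.64) and of the neuroendocrine markers (-2.84) were lowest. The club medians and Erbb3 differed little between these arrays, so their order there carries little weight. The part of cell types in it was not tested. The club markers shifted by medians of 4.64 to 4.71 in the GFP-high arrays, the alveolar type 2 markers by 4.37 to 4.50 and the alveolar type 1 markers by 1.97 to 2.26, beside 3.92 to 4.16 for Erbb2 and 1.92 to 2.00 for Erbb3. Of 4 basal cell markers limma called 0 (1 at an unadjusted p under 0.05, and 0 in the test without moderation), and Trp63 read 4.68 to 4.75 in GFP-high and 4.62 to 4.75 in GFP-negative arrays. Of 9 leukocyte markers 1 was lower and 8 did not pass (11.1% called, log2 fold changes from -1.09 to 0.45). Of 6 endothelial markers 1 was higher, the receptor gene Kdr, while Pecam1 and Cdh5 did not pass (16.7% called, -0.33 to 3.87). Of 7 fibroblast markers 1 was lower, Dcn, and 6 did not pass (14.3% called, -1.47 to 0.50). Of 6 ciliated cell markers 1 was higher, 1 lower and 4 did not pass (33.3% called, -0.79 to 3.10). The share called over all genes was 30%.

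**Figure D4:**
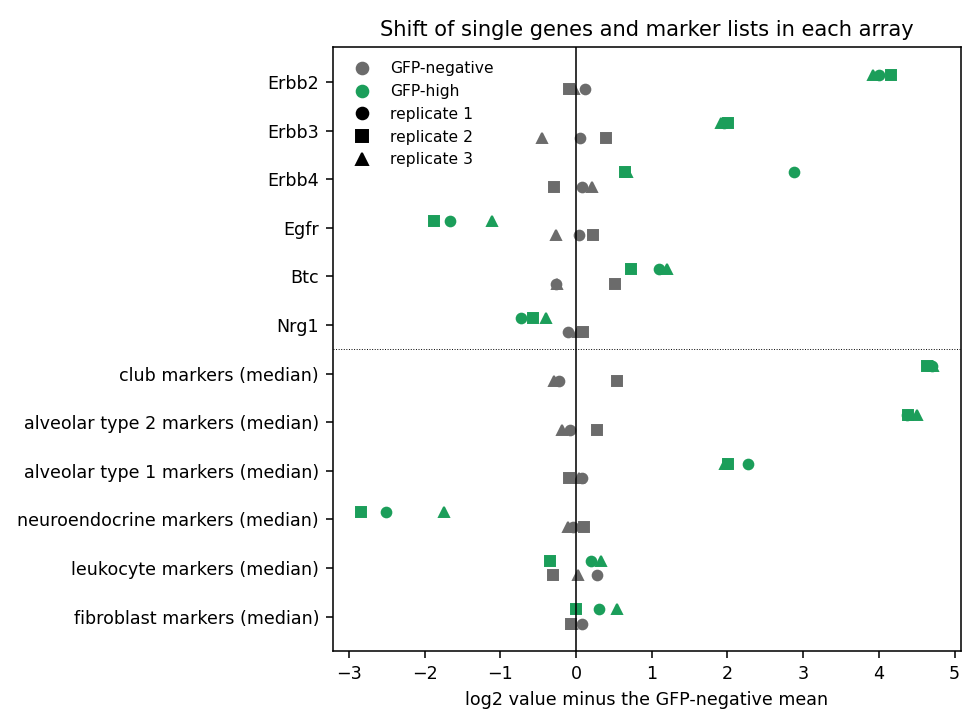
Shift of 6 members, and the median shift of 6 marker lists, from the GFP-negative mean in each array (log2 units), with GFP-negative arrays in grey, GFP-high arrays in green and a marker shape for each replicate number. Erbb2 and the club and alveolar type 2 markers lie near 4 or above in all GFP-high arrays, and Egfr and the neuroendocrine markers are least reduced in GFP-high replicate 3.

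The genes most like each receptor were those with the smallest root mean square distance over the 6 arrays after each gene was centred on its own mean. A direction or a highest array that they share with the receptor follows from this choice and is no separate result. For Egfr they were Erich3 (0.057 log2 units), the synaptotagmin gene Syt17 (0.063) and the phosphodiesterase gene Pde5a (0.068), all lower in GFP-high cells and all highest there in replicate 3. For Erbb2 they were Myof (0.093), which encodes the membrane repair protein myoferlin, the vitamin C transporter gene Slc23a1 (0.096) and the desaturase relative Fads3 (0.105), with log2 fold changes of 4.04, 4.01 and 3.93. For Erbb3 they were the sorting receptor gene Sorl1 (0.112), the vesicle fusion gene Vamp8 (0.127) and the membrane protease gene Tmprss2 (0.130). Erbb4 had no gene as near. Its nearest were the cytokine genes Tnf (0.359) and Il6 (0.432) and the nuclear receptor gene Nr1h5 (0.461), each with its highest value in GFP-high replicate 1, the array where Erbb4 was highest. Tnf read 8.55 there against 7.23 and 6.99, and Il6 read 6.77 against 5.36 and 5.40.

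Genes next to the receptors on their chromosomes were looked up after the receptors' values were seen. The counts among 6 neighbours stand beside 30% of all genes called, 13% as higher and 17% as lower. In RefSeq order (GRCm38.p6) the 3 protein-coding genes on each side of Erbb2 include Pgap3, Mien1 and Grb7, which are often gained together with ERBB2 in human breast cancer. Of these 6 neighbours 5 did not pass and 1, Ikzf3, was higher (0.91 ± 0.15). Pgap3 gave 0.05 ± 0.14, Mien1 -0.34 ± 0.14 and Grb7, an adaptor that binds Erbb2, 0.32 ± 0.17. DNA copy number was not measured, and its part in the rise of Erbb2 was not tested. Around Erbb3 4 of 6 neighbours were lower, the direction opposite to that of Erbb3, with Ikzf4 at -1.71 ± 0.15. Around Egfr 4 of 6 were lower and 2 did not pass, with Vstm2a at -1.55 ± 0.18. Around Erbb4 5 of 6 did not pass and 1 was higher, Ikzf2 at 2.65 ± 0.15 (adjusted p = 4.35e-06 by limma), which read 4.97, 4.84 and 4.53 in GFP-negative and 7.39, 7.31 and 7.59 in GFP-high arrays. The ligand genes Epgn, Ereg, Areg and Btc follow one another on a chromosome. Of the 3 measured Epgn and Btc were called higher and Ereg did not pass. The call of Epgn was lost in 9 of 13 alternatives and that of Btc in the test without moderation.

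**Figure D5:**
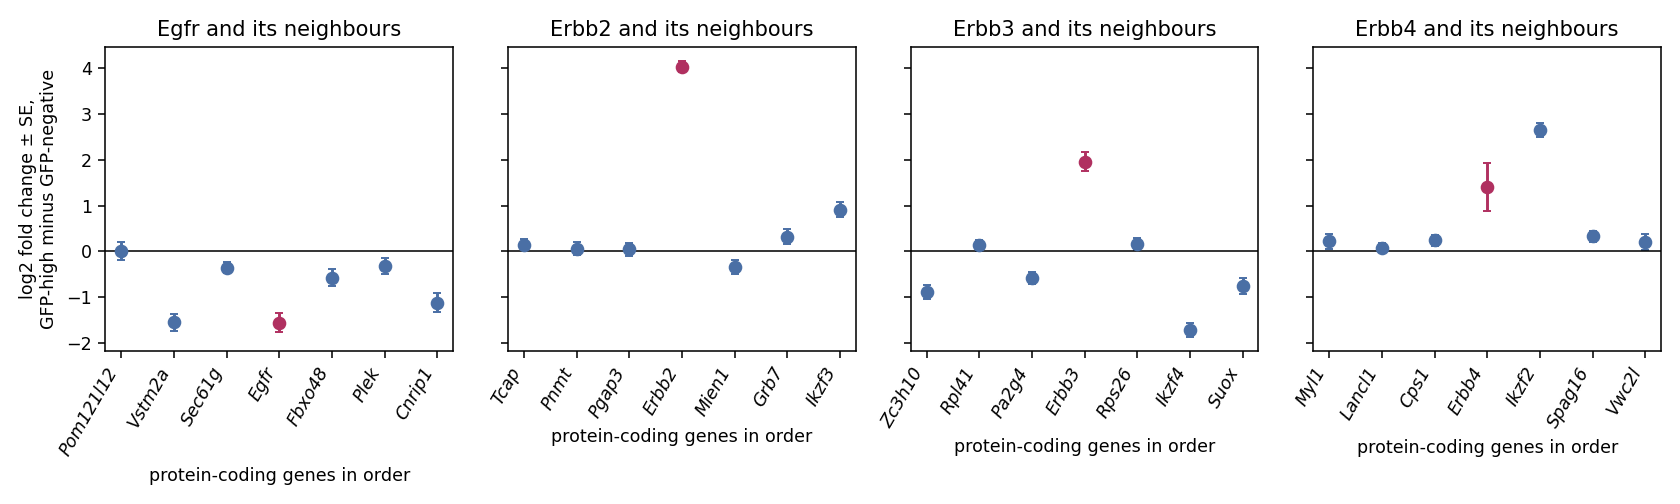
Log2 fold change ± SE (GFP-high minus GFP-negative) of Egfr, Erbb2, Erbb3 and Erbb4 (red) and of the 3 protein-coding genes on each side in RefSeq order (blue), with gene order rather than distance on the horizontal axis. Erbb2 stands at 4.03 among neighbours between -0.34 and 0.91, while Ikzf2 next to Erbb4 stands at 2.65, above Erbb4 at 1.40.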

How the data were processed

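Mouse Gene 2.0 ST arrays of 6 samples were used, 3 GFP-high and 3 GFP-negative, grouped by their titles. The deposited log2 values were made by the authors with RMA, per the submitters' processing notes; the sources used here give no version, annotation release or build. RMA equalises the arrays, which hides a shift common to most genes, and low levels are compressed. Of 41344 rows, 23520 name 1 gene, and the row with the highest mean stood for each of 22179 genes. Groups were compared with limma 3.58.1 in R 4.3.3 (lmFit and eBayes, no block), with Benjamini-Hochberg adjustment over all genes and a threshold of 0.05. The procedure was tested on simulated data. With 3 samples a group the smallest exact permutation p is 0.1, and none is reported. Members and lists were chosen with earlier results of these data known. Genes named are the members, up to 4 called genes with the largest change in each pathway list, and the 3 genes most like each receptor; any other gene, marker or neighbour named was chosen after its values were seen. Alternatives were quantile normalization, median centring, a filter on the lowest 30% of genes, mean rows, single rows, array weights, trend and robust settings, a block for the replicate number, a test without moderation and leaving out each array. Promoter sequences come from RefSeq (GRCm38.p6), where 6 members had one that was searched. Tables were made with pandas 2.3.3 and numpy 2.4.6 under Python 3.11.15, and plots with matplotlib 3.10.9.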

Additional observations from a re-analysis of the deposited data

How the results depend on the processing

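Erbb2, Erbb3, Egfr and Nrg1 kept their direction and their call in all 14 alternatives, with log2 fold changes of 3.96 to 4.09, 1.73 to 2.16, -1.77 to -1.39 and -0.65 to -0.49. Btc kept its direction (0.88 to 1.27) and lost its call only in the test without moderation. The number of members called was 5 to 6 when each array was left out and 4 to 6 otherwise, and the number of genes called 5408 to 6116 and 5054 to 6963. The replicate number as a block gave 6172 genes and 6 members, the added member being Erbb4 (adjusted p = 0.0432). Deviations of same-numbered samples correlated at 0.11, -0.03 and -0.0016, and those of differently numbered samples at -0.07 to 0.06. With 3 arrays a group such values cannot settle whether the samples are paired. The main fit did not take the numbers as pairs. Whether same-numbered samples share a pool is not known. Ereg, which never passed, ran from -0.0070 (without GFP-high replicate 1) to 0.27 (without GFP-high replicate 3) when an array was left out and was -0.034 in its other row; the cause was not tested. Pathway list calls numbered 28 to 31 when an array was left out and 30 to 38 otherwise, beside 34. Signal over background is not known for single probes, which limits what low levels such as those of Erbb4 show.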
